A study of Mus musculus with 15 samples.

Results

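Tuft cells are rare chemosensory cells of the gut epithelium, and 10 genes that mark them were followed here in crypts of the mouse small intestine: Dclk1, Trpm5, Pou2f3, Gfi1b, Ptgs1, Hpgds, Alox5ap, Plcb2, Avil and Rgs13. Every array probe whose transcript accession maps to one of these symbols was taken, which gave 13 of the 39429 probes on the array, for 10 of its 20144 named genes. Dclk1 had 3 probes, Plcb2 had 2 and each of the other genes had 1. All 13 were among the 28488 probes kept for testing, for which some group had to show crypt signal well above background on 4 or more of its 5 arrays.

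Tuft cells carry a taste-type signalling cascade in which a G protein activates phospholipase C, calcium is released from stores and the cation channel Trpm5 opens. They also make eicosanoids, the lipid mediators derived from arachidonic acid, and the cytokine that starts type 2 immunity against parasites. Pou2f3 is the transcription factor that the lineage requires. Notch signalling restrains the secretory fate in crypts, largely by holding back Atoh1, and whether intestinal tuft cells arise along the Atoh1-dependent route or beside it has been debated.

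Crypts came from mice aged 6 to 8 weeks, 24 h after 1 of 3 treatments: a control IgG antibody (control), blocking antibodies against Notch1 and Notch2 (N1N2), or those antibodies together with an antibody against the Wnt co-receptor Lrp6 at 30 mg/kg (N1N2 plus Lrp6). The Notch antibodies were given once, at an amount that the labels state only as a concentration of 1 mg/mL. Strain and sex are not given in the sources used here, nor is whether an array holds 1 animal or a pool, and the p-values then measure the spread between these samples. Each group has 5 arrays, on which Cy5-labelled (red) crypt RNA was hybridised with a Cy3-labelled (green) universal mouse reference, always in the same dye orientation. The crypts were shaken loose and strained without sorting, so all cells of the preparation contribute, and fewer tuft cells cannot be told apart from less RNA per tuft cell.

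The share of spots with crypt signal well above background was 75.8% ± 4.19 (SD, n = 5) in control, 73.9% ± 3.05 in N1N2 and 64.8% ± 6.01 in N1N2 plus Lrp6, where it ran from 57.2% to 73.6%. Of the 6 slides used, a single one was shared between groups: it carried control replicates 4 and 5 and N1N2 replicates 1 and 2. The N1N2 plus Lrp6 arrays shared no slide with another group, so slide and group cannot be told apart there. The targeted pathway moved in the crypts: the Notch target Hes1 fell by 0.87 on the log2 scale in N1N2 against control (limma, adjusted p = 0.000677) and Atoh1, which Notch represses, rose by 1.95 (adjusted p = 0.000161). Of the 10 tuft cell genes, 9 gave crypt signal well above background on all 15 arrays with their brightest probe, and Hpgds did on 10.

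Of the 13 tuft cell probes, 1 was called higher and none lower in N1N2 against control: Trpm5, by 0.39 log2 units. Among all probes tested the share called at an adjusted p under 0.05 in this comparison was 11.4%, with 6.2% higher and 5.23% lower. With the Lrp6 antibody added, no tuft cell probe was called against N1N2, where 16.5% of all probes were called (9.67% higher, 6.87% lower). None was called against control either, where 0.358% of all probes were called (0.197% higher, 0.161% lower). Of all probes called, the share that was higher moved from 58.5% to 77.2% for the added antibody with median centring in place of loess, and from 54.9% to 67.2% against control with arrays scaled to each other. Groups that did not overlap were found for Trpm5 in the first comparison, beside 12.2% of all probes, and for no tuft cell probe in the others, beside 9.99% and 2.62%. At an unadjusted p under 0.05 limma counted 2 of the 13 probes in each of the 3 comparisons, beside 26.4%, 29.1% and 12.8% of all probes in the order above. Levels are given as the log2 ratio of crypt to reference signal, changes are differences of group means from 1 limma fit of all 15 arrays, and p-values were adjusted over 28488 probes. The median change over the 13 probes was 0.07 in N1N2 against control, beside -0.01 over all probes. It was -0.03 beside 0.00391 for the added Lrp6 antibody, and 0.05 beside 0.00988 for N1N2 plus Lrp6 against control. Each pair of these comparisons shares the arrays of 1 group.

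**Figure D1:**
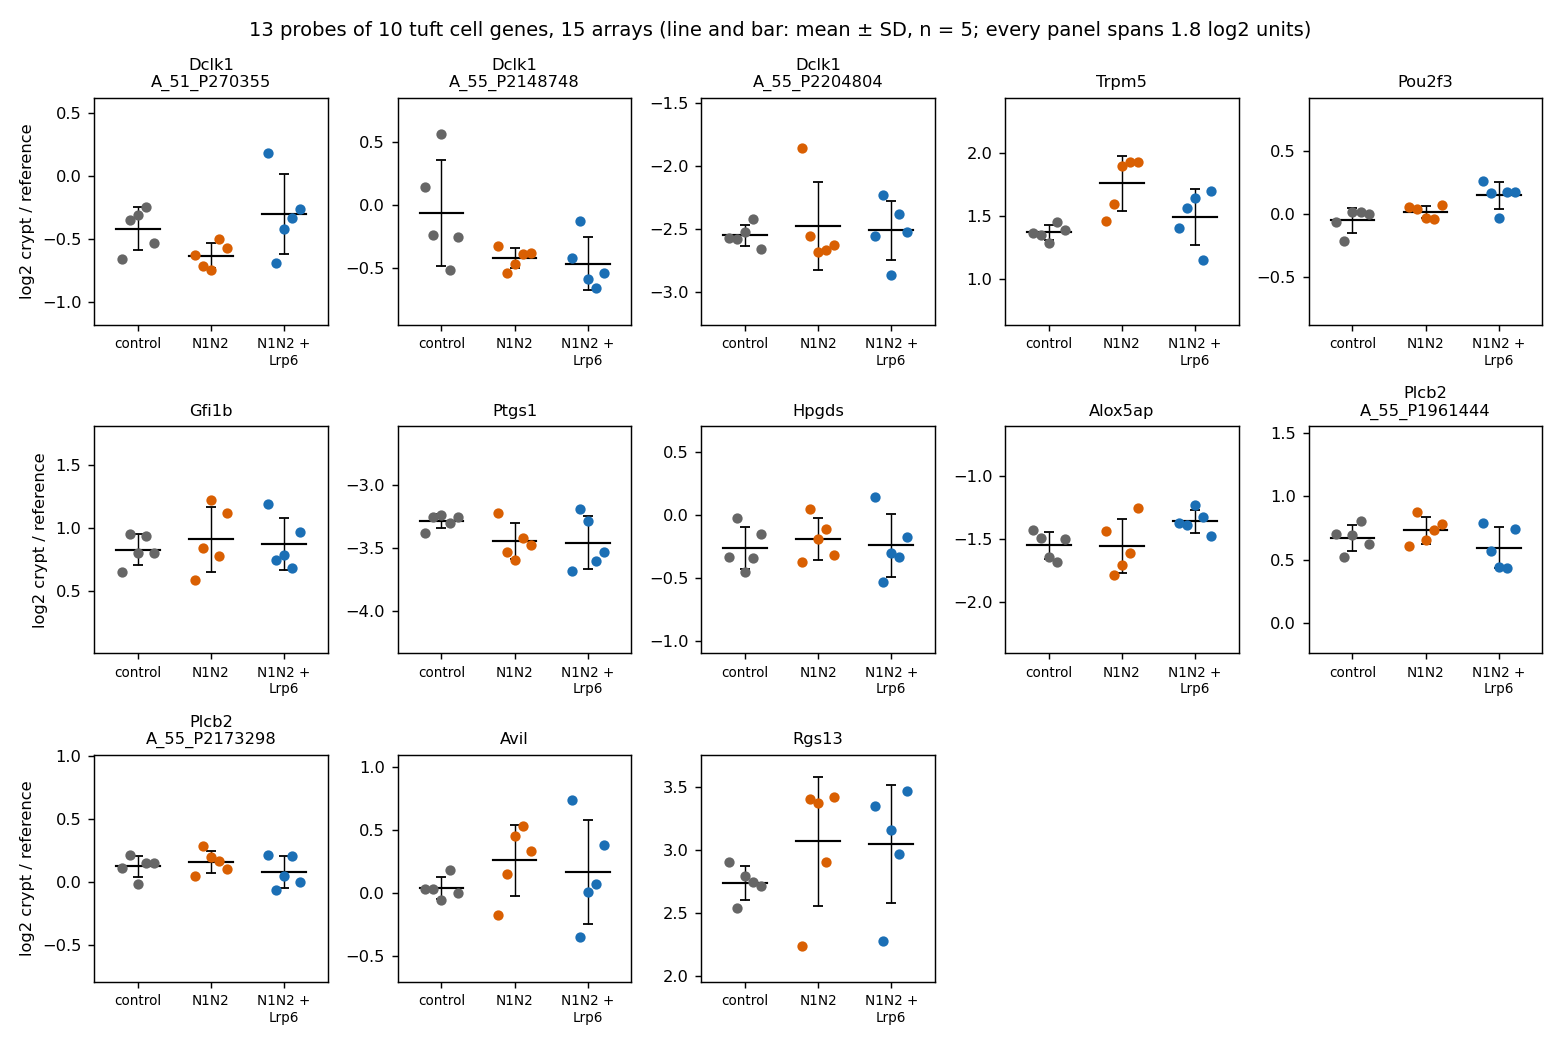
Log2 ratio of crypt over reference signal (vertical axis) for the 13 probes of the 10 tuft cell genes on the 5 arrays of each group (points), with the group mean (line) and SD (bar); every panel spans 1.8 log2 units. Trpm5 is the only panel in which all N1N2 points lie above all control points, by a gap between 1.456 and 1.462, and in the other 12 panels the groups overlap in every comparison.

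The start regions of the genes on which the results turn are shown for reference, as RefSeq sequences of build GRCm38.p6, each with 250 bases before and 50 bases after an annotated transcription start, on the gene's own strand. Trpm5 is shown as the member that passed the test and Hpgds because it alone held an octamer. Dclk1 is shown because its probes went different ways and windows at 2 of its starts were at hand. Capitals mark the octamer ATGCAAAT, which POU factors such as Pou2f3 bind, and the hexamer TGGGAA, the core of the motif of the Notch partner Rbpj. Both strands were searched, and no match of one overlapped a match of the other in the members' windows. The Trpm5 window lies at chr7:143094593-143094892 on the minus strand, the Dclk1 windows at chr3:55242114-55242413 and chr3:55461478-55461777 on the plus strand, and the Hpgds window at chr6:65144681-65144980 on the minus strand.
Trpm5: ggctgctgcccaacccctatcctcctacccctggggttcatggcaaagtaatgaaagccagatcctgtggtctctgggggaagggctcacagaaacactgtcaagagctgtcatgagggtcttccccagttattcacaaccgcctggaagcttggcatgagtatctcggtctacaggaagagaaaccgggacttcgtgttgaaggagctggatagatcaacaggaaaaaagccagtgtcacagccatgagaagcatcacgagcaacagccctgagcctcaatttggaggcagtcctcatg
Dclk1, upstream start: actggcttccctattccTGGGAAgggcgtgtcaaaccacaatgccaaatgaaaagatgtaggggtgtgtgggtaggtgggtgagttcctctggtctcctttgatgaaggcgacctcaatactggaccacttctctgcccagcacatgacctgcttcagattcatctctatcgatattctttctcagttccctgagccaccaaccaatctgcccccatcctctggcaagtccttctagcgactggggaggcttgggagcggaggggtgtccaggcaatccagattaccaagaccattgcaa
Dclk1, downstream start: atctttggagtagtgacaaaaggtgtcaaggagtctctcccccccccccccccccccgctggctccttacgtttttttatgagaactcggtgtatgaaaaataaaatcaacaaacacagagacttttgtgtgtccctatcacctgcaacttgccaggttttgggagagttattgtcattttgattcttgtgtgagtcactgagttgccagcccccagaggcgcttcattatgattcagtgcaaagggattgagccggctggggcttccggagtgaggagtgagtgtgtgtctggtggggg
Hpgds: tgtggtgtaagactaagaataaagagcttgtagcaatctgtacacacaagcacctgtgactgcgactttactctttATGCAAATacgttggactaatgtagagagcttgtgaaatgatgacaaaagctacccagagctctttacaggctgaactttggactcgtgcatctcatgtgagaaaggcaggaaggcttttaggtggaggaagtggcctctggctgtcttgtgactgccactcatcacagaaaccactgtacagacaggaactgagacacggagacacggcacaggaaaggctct
Windows were at hand for 8 of the 10 genes, 9 windows in all, with none for Pou2f3 and Alox5ap. The octamer was in 1 of the 9, in Hpgds at position -174 from the start, and in 1.74% of the 32851 windows of the same length over all genes. The hexamer was in 2 of the 9, in the upstream Dclk1 window at -233 and in Rgs13 at -232 on the opposite strand, and in 25.6% of all windows. The Trpm5 window held neither. The annotated span of Dclk1 begins at 55242303 and that of Hpgds reaches 65144981, both upstream of the starts shown. The Hpgds octamer thus lies within the annotated gene. Which Dclk1 start the transcripts of the 3 probes use was not worked out here, and a match is a run of letters, not a measured site.

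Trpm5 encodes the calcium-activated cation channel at the end of the taste-type cascade. Its log2 ratios were 1.36, 1.35, 1.29, 1.46 and 1.39 on control arrays 1 to 5. They were 1.46, 1.59, 1.90, 1.93 and 1.93 on N1N2 arrays 1 to 5, and 1.41, 1.56, 1.64, 1.15 and 1.70 on N1N2 plus Lrp6 arrays 1 to 5. All 5 N1N2 values lay above all 5 control values, although N1N2 replicate 1 exceeded the highest control value by little (1.462 against 1.456), while N1N2 plus Lrp6 spread over both ranges. Over all probes, 5.83% separated in this way with N1N2 higher.

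The change of Trpm5 in N1N2 against control was 0.39 (SE 0.11, limma adjusted p = 0.0354), a fold of 1.31 with a 95% interval from 1.11 to 1.55. On the shared slide alone the Trpm5 difference was 0.10 (adjusted p = 0.625 with slide as a block). There the control arrays gave 1.46 and 1.39 and the N1N2 arrays 1.46 and 1.59, and the 3 highest N1N2 values of Trpm5 came from the other slides. The call was also lost with arrays scaled to each other (0.22, adjusted p = 0.267), with median centring in place of loess (0.36, adjusted p = 0.102), with a background offset of 0 (0.45, adjusted p = 0.0865) and with the replicate number as a block (adjusted p = 0.0506). Leaving out 1 array at a time gave adjusted p-values from 0.0142 to 0.0959 and ended the call for control replicates 1, 2, 3 and 5 and for N1N2 replicates 3, 4 and 5. Trpm5 was lower in N1N2 plus Lrp6 than in N1N2 by 0.27 (change -0.27, SE 0.11), which did not pass (adjusted p = 0.12), and without N1N2 replicate 1 it did (-0.34, adjusted p = 0.0422). Against control the N1N2 plus Lrp6 value was 0.12 higher (SE 0.11, adjusted p = 0.684). The order of the group means for Trpm5 was thus N1N2 (1.76), N1N2 plus Lrp6 (1.49) and control (1.37), and of the neighbours in it neither pair differed beyond the test.

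Plcb2, the phospholipase C that acts upstream of Trpm5 in taste-type cells, did not change past the test in any comparison. Its brighter probe A_55_P1961444 had group means of 0.67 ± 0.11 (SD) in control, 0.73 ± 0.11 in N1N2 and 0.60 ± 0.17 in N1N2 plus Lrp6. The changes of this Plcb2 probe were 0.06 (SE 0.09, limma adjusted p = 0.714) for N1N2 against control and -0.13 (adjusted p = 0.336) for the added Lrp6 antibody. The second Plcb2 probe, A_55_P2173298, was dim in N1N2 plus Lrp6, where 1 of 5 arrays was well above background, against 5 in control and 4 in N1N2. Its changes had the same signs, 0.04 and -0.08, and neither passed. Among tuft cell probes, those of Plcb2 had some of the narrowest intervals: for N1N2 against control the 95% interval of A_55_P1961444 ran from -0.12 to 0.24.

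Rgs13, a regulator that shortens G-protein signals and is also known from B cells and mast cells, had the largest SE of all members. Its log2 ratios were 2.90, 2.54, 2.79, 2.75 and 2.71 in control. They were 2.24, 3.41, 3.37, 2.90 and 3.42 in N1N2, and 3.35, 2.28, 3.16, 2.96 and 3.47 in N1N2 plus Lrp6. In both treated groups 1 array lay below every control array and 3 or more lay above all of them, so Rgs13 overlapped between all groups. The change of Rgs13 in N1N2 against control was 0.33 (SE 0.23, limma adjusted p = 0.397), with a 95% interval from -0.16 to 0.82. For N1N2 plus Lrp6 against control it was 0.31 (adjusted p = 0.608). The reference channel of the Rgs13 probe was not well above background on any array, so its ratios rest on a denominator near the floor. From the red channel alone the change in N1N2 was 0.18 (adjusted p = 0.567). Over all settings tried, the change of Rgs13 against control ran from 0.03 to 0.98 in N1N2. In N1N2 plus Lrp6 it ran from 0.20 to 1.18, and no setting gave a call in either.

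**Figure D2:**
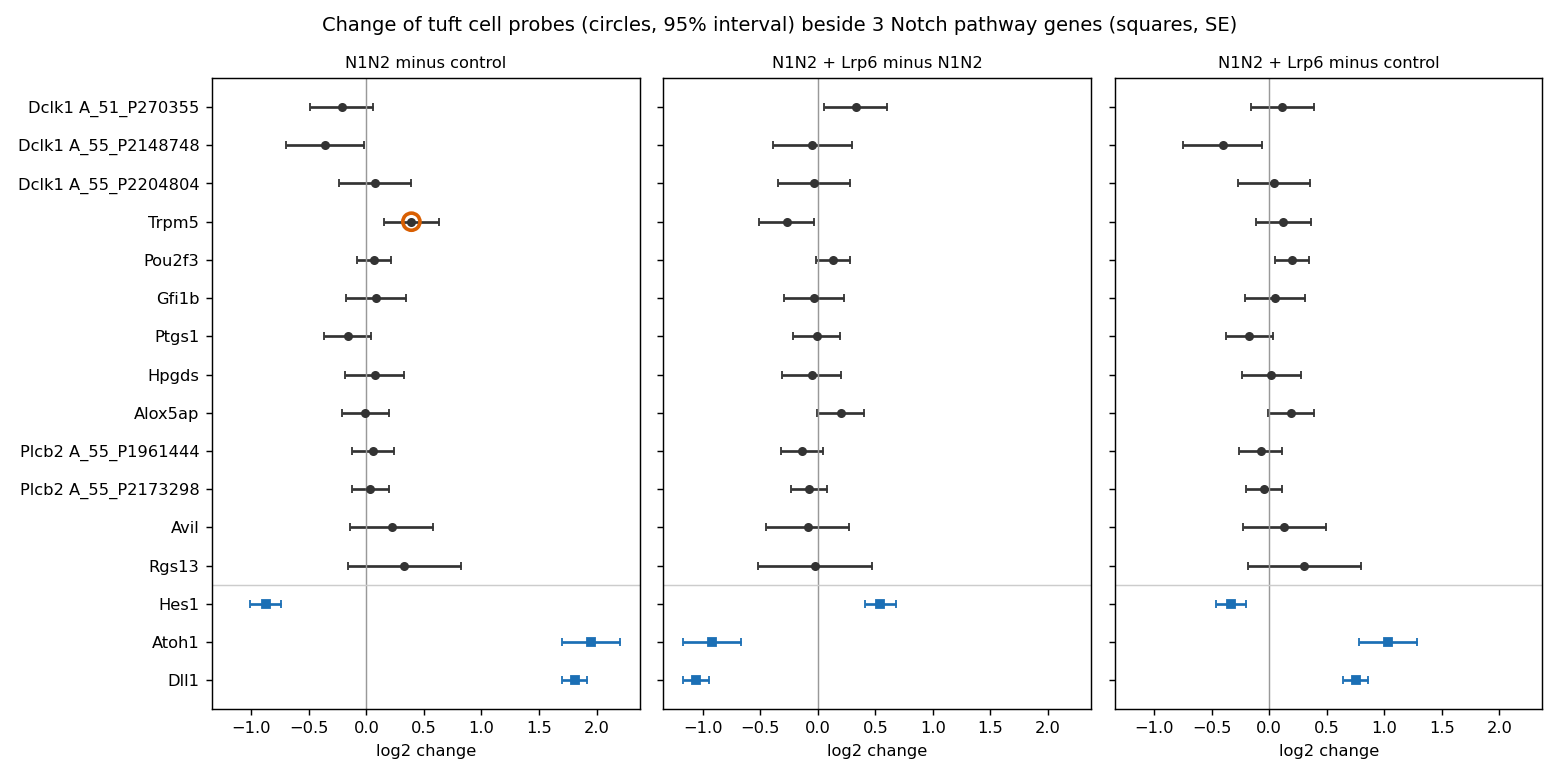
Log2 change (horizontal axis) of each tuft cell probe in the 3 comparisons (circles, with the 95% interval of the limma fit) beside the Notch pathway genes Hes1, Atoh1 and Dll1 (squares, with the SE). The ringed Trpm5 change of 0.39 is the only one past the adjusted p of 0.05 among the tuft cell probes, whose changes run from -0.40 to 0.39, while Atoh1 stands at 1.95 in N1N2 against control.

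Neither transcription factor of the set changed past the test. For Pou2f3 the log2 ratios were -0.07, -0.22, 0.01, 0.02 and 0.00 in control, 0.05, 0.04, -0.03, -0.04 and 0.07 in N1N2, and 0.26, 0.17, -0.04, 0.17 and 0.17 in N1N2 plus Lrp6. Of the N1N2 plus Lrp6 arrays, 4 lay above every control and every N1N2 array for Pou2f3, and replicate 3 lay among them. The change of Pou2f3 was 0.07 (SE 0.07, limma adjusted p = 0.581) in N1N2 against control, 0.13 (adjusted p = 0.239) for the added Lrp6 antibody and 0.20 (95% interval 0.05 to 0.34, adjusted p = 0.259) for N1N2 plus Lrp6 against control. The last passed with slide as a random block (0.19, adjusted p = 0.0297), in which the consensus correlation came out negative, at -0.18. It turned to -0.05 in the red channel alone (limma adjusted p = 0.813). That setting also brought all arrays to a common distribution of values. Which of these steps turned the sign of Pou2f3 was not tested.

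Gfi1b, a transcriptional repressor of tuft cells that also serves megakaryocytes and red cell precursors, ranged from 0.65 to 0.95 in control, 0.59 to 1.22 in N1N2 and 0.68 to 1.19 in N1N2 plus Lrp6. The control range of Gfi1b lay inside that of N1N2, and all groups overlapped. Its changes were 0.08 (SE 0.12, limma adjusted p = 0.721) in N1N2 against control and -0.03 (adjusted p = 0.899) for the added antibody. In the N1N2 comparison the sign of Gfi1b turned with arrays scaled to each other (-0.009) and within the shared slide (-0.15).

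The eicosanoid genes did not change past the test in any comparison. Alox5ap presents arachidonic acid to 5-lipoxygenase for leukotriene synthesis, Ptgs1 is the constitutive cyclooxygenase, and Hpgds makes prostaglandin D2, and all of them are also used by mast cells, macrophages or platelets. Alox5ap had log2 ratios of -1.43, -1.49, -1.64, -1.68 and -1.50 in control, -1.44, -1.78, -1.70, -1.61 and -1.25 in N1N2, and -1.37, -1.39, -1.23, -1.32 and -1.47 in N1N2 plus Lrp6. The N1N2 plus Lrp6 values of Alox5ap were all -1.47 or higher and the control values reached down to -1.68, yet the groups overlapped. Its change was -0.01 (SE 0.10) in N1N2 against control (limma adjusted p = 0.969), 0.20 (adjusted p = 0.18) for the added Lrp6 antibody and 0.19 (adjusted p = 0.423) for N1N2 plus Lrp6 against control. The 0.20 became a call without N1N2 replicate 5 (0.28, adjusted p = 0.039) and with slide as a random block (0.22, adjusted p = 0.0391).

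Ptgs1 lay far below the reference in all groups, between -3.38 and -3.24 in control, -3.59 and -3.22 in N1N2, and -3.68 and -3.19 in N1N2 plus Lrp6. Its change was -0.16 (SE 0.10, limma adjusted p = 0.313) in N1N2 against control and -0.17 (adjusted p = 0.479) in N1N2 plus Lrp6 against control, with all groups overlapping. Hpgds was the dimmest member, with crypt signal well above background on 5 control, 4 N1N2 and 1 N1N2 plus Lrp6 arrays. Its means were -0.26 ± 0.17 (SD) in control, -0.19 ± 0.17 in N1N2 and -0.24 ± 0.25 in N1N2 plus Lrp6, and its changes lay between -0.05 and 0.07 over the comparisons. For Hpgds in the group with the Lrp6 antibody the depth of signal allows no statement beyond this.

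Dclk1, a microtubule-associated kinase and a widely used marker of intestinal tuft cells, was read by 3 probes that did not move together. Probe A_51_P270355 gave -0.66, -0.35, -0.31, -0.25 and -0.54 in control, -0.63, -0.72, -0.75, -0.51 and -0.58 in N1N2, and 0.18, -0.69, -0.43, -0.34 and -0.27 in N1N2 plus Lrp6. Probe A_55_P2148748 gave 0.14, -0.25, 0.56, -0.52 and -0.26 in control, -0.33, -0.54, -0.47, -0.39 and -0.39 in N1N2, and -0.43, -0.13, -0.59, -0.66 and -0.54 in N1N2 plus Lrp6. For the first Dclk1 probe N1N2 plus Lrp6 replicate 1 stood above all other arrays, and for the second control replicates 1 and 3 did, with all groups overlapping. Probe A_55_P2204804 lay between -2.66 and -2.42 in control, -2.68 and -1.85 in N1N2, and -2.86 and -2.23 in N1N2 plus Lrp6, with 1 array below the background limit in the last group.

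In N1N2 against control the Dclk1 changes were -0.22 (SE 0.13, limma adjusted p = 0.313) for A_51_P270355, -0.36 (SE 0.16, adjusted p = 0.168) for A_55_P2148748 and 0.07 (SE 0.15, adjusted p = 0.8) for A_55_P2204804. The added Lrp6 antibody gave 0.33 (SE 0.13, adjusted p = 0.0993) for A_51_P270355 and -0.05 and -0.03 for the other Dclk1 probes. That 0.33 passed without N1N2 plus Lrp6 replicate 2 (0.42, adjusted p = 0.0219) and with slide as a random block (0.32, adjusted p = 0.0242). Against control the N1N2 plus Lrp6 group gave -0.40 (adjusted p = 0.314) for A_55_P2148748, 0.11 for A_51_P270355 and 0.04 for A_55_P2204804. The -0.40 likewise passed with slide as a random block (-0.41, adjusted p = 0.0497). No direction for Dclk1 was thus shared by its 3 probes in any of the 3 comparisons. In N1N2 against control this hung on 1 array. Without N1N2 replicate 1, A_55_P2204804 gave -0.08 there, the sign of the other Dclk1 probes. A_55_P2148748 and A_55_P2204804 carry the same accession, NM_001111053, and A_51_P270355 carries NM_019978.

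Avil, an actin-severing protein of the tuft cell's apical bundle that is also known from sensory neurons, read 0.04, 0.04, -0.05, 0.18 and 0.01 in control. It read -0.17, 0.15, 0.46, 0.53 and 0.33 in N1N2, and 0.74, -0.35, 0.01, 0.07 and 0.38 in N1N2 plus Lrp6. In N1N2, 3 arrays lay above every control array and replicate 1 lay below them all, and N1N2 plus Lrp6 held both the highest and the lowest Avil value. The change of Avil was 0.22 (SE 0.17, limma adjusted p = 0.447) in N1N2 against control, and within the shared slide it was -0.11.

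The spread within groups was not shared by all members. With 1 probe per gene, Pearson's r of deviations from the group means had a median of 0.16 over 45 pairs. It ran from -0.78 to 0.73 and lay above 0 in 27. Some arrays still stood at an end of their group for several members, and the share of all probes with them there was not counted. N1N2 replicate 1 was the lowest N1N2 array for Rgs13, Avil, Gfi1b, Hpgds, Trpm5 and both Plcb2 probes, and N1N2 plus Lrp6 replicate 2 was the lowest array of its group for Rgs13, Avil, Hpgds, A_51_P270355 of Dclk1 and A_55_P2173298 of Plcb2. N1N2 plus Lrp6 replicate 1 was the highest of its group for Avil, Gfi1b, Hpgds, Pou2f3, both Plcb2 probes and the same Dclk1 probe. Ptgs1 ran the other way on these arrays. It read -3.22 on N1N2 replicate 1 and -3.19 on N1N2 plus Lrp6 replicate 2, the highest of their groups. On N1N2 plus Lrp6 replicate 1 it read -3.68, the lowest. Dclk1 probes A_55_P2148748 and A_55_P2204804 were also highest of the N1N2 group on replicate 1 (-0.33 and -1.85). They were so again on N1N2 plus Lrp6 replicate 2 (-0.13 and -2.23).

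The mean log2 ratio of 7 mast cell genes was 0.92 on N1N2 plus Lrp6 replicate 1 and 2.04 on replicate 2, the lowest and highest of the 15 arrays. Among the 7, Tpsb2 varied most, with an SE of 1.04 for its change in N1N2 against control. The others had 0.09 to 0.21, and the weight of Tpsb2 in these means was not tested. The mean of 12 myeloid genes was lowest, at -0.39, on replicate 1, the array that also had the smallest share of spots above background (57.2%). The part of mast or myeloid cells in the Avil, Dclk1 and Ptgs1 values was not tested. Control arrays were closer together for Rgs13 and Avil, with an SD of 0.13 and 0.09, against 0.51 and 0.28 in N1N2 and 0.47 and 0.41 in N1N2 plus Lrp6. Dclk1 probe A_55_P2148748 ran the other way, with an SD of 0.42 in control, 0.08 in N1N2 and 0.21 in N1N2 plus Lrp6, and for Pou2f3 and Dclk1 probe A_51_P270355 the control SD (0.10 and 0.17) was above that in N1N2 (0.05 and 0.10).

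**Figure D3:**
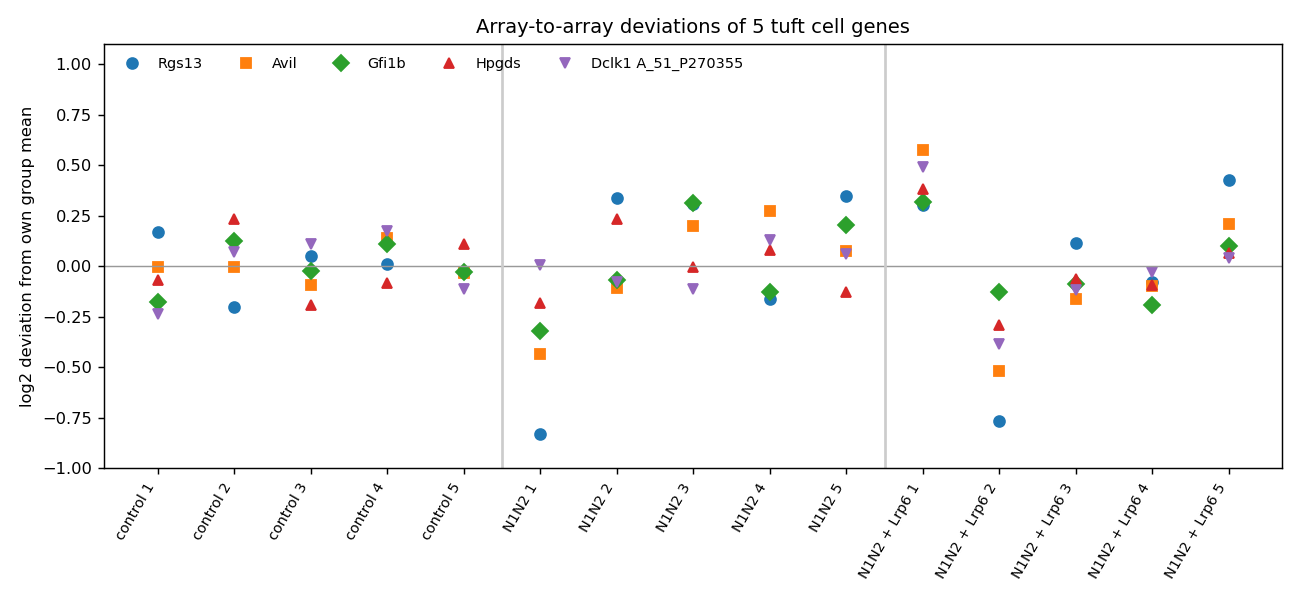
Deviation of the log2 ratio from the group's own mean (vertical axis) on each of the 15 arrays for Rgs13, Avil, Gfi1b, Hpgds and Dclk1 probe A_51_P270355, which were picked for this plot after their values were seen. N1N2 replicate 1 and N1N2 plus Lrp6 replicate 2 carry the 2 lowest Rgs13 points, N1N2 plus Lrp6 replicate 1 has all 5 genes above their mean, and each control array has genes on both sides of 0.

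The genes whose log2 ratios over the 15 arrays were most like those of a member, among 16048 named genes by Pearson's r, differed from member to member. They were Trim72 for Trpm5 (r = 0.88), Rasef for Rgs13 (r = 0.91), Fntb for Avil (r = 0.90), Antxr1 for Ptgs1 (r = 0.91), Diablo for Alox5ap (r = 0.91) and Gabpa for Dclk1 (r = 0.87). For Pou2f3, Gfi1b, Hpgds and Plcb2 the first were Gm15760, Irf2bp1, Sesn3 and Unc93a2, with r from 0.84 to 0.89. These are descriptions of the same 15 arrays, picked as the highest of many, and all arrays share the reference RNA.

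Beyond the 10 members, 49 further tuft cell genes were listed by role, 48 were on the array and 44 were tested, with the brightest probe standing for a gene. In N1N2 against control 5 of the 44 were called higher and none lower, and the median change of the 44 was 0.09. Over all probes 11.4% were called in this comparison and 6.2% were called higher, so the share called is near the background. Atp2a3, a calcium pump of the endoplasmic reticulum, rose by 1.57 (SE 0.15, limma adjusted p = 8.79e-06), Sox9, a transcription factor also of stem and Paneth cells, by 0.94 (adjusted p = 0.00305), and Krt18, a keratin of simple epithelia, by 0.83 (adjusted p = 9.46e-05). Il4ra, the shared receptor chain for IL-4 and IL-13, rose by 0.56 (adjusted p = 0.0493) and Nrep by 0.42 (adjusted p = 0.00988). With slide as a fixed block Sox9 (0.49, adjusted p = 0.28), Nrep (0.37, adjusted p = 0.22) and Il4ra (0.39, adjusted p = 0.401) no longer passed, and with median centring Krt18 (0.44, adjusted p = 0.112) and Il4ra (0.44, adjusted p = 0.188) did not. Atp2a3 passed in each of these. With 1 array left out at a time Il4ra passed in 5 of 15 fits, with adjusted p-values up to 0.121.

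When the Lrp6 antibody was added, 6 of the 44 were called lower against N1N2 and none higher. The median of the 44 was -0.03, and of all probes 16.5% were called and 6.87% called lower. Atp2a3 fell by 1.04 (limma adjusted p = 0.000711), Il4ra by 0.74 (adjusted p = 0.0104), Ptges, a prostaglandin E synthase, by 0.59 (adjusted p = 0.0342), Krt18 by 0.58 (adjusted p = 0.00189), Itpr3, the calcium release channel between Plcb2 and Trpm5 in the cascade, by 0.54 (adjusted p = 0.0179) and Tuba1a by 0.38 (adjusted p = 0.0269). With median centring in place of loess the changes of Itpr3 (-0.11), Tuba1a (-0.09), Ptges (-0.19) and Krt18 (0.0025) no longer passed. Ptges also lost its call with the replicate number as a block (adjusted p = 0.0614) and passed in 8 of 15 fits with 1 array left out, and Il4ra lost its with arrays scaled to each other (-0.49, adjusted p = 0.0684). Against control, none of the 44 passed in N1N2 plus Lrp6, and their median was 0.07.

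By role, 0 of 8 tested genes of the taste-type cascade passed in N1N2 against control, with Chat, which makes acetylcholine, the furthest at 0.31 (limma adjusted p = 0.0839). The count was 0 of 4 for eicosanoid synthesis (Ptges furthest, at 0.41, adjusted p = 0.157) and 0 of 13 for kinases and adaptors (Fyb furthest, at -0.49, adjusted p = 0.0977). In the other settings tried, Chat passed in 4 of 29, and Ptges and Fyb in 1 of 30 each. It was 1 of 6 for transcription factors, 1 of 3 for cytokines and their receptors and 3 of 10 for structural and other genes, in a comparison where 11.4% of all probes were called. For the added Lrp6 antibody the counts were 1 of 8, 1 of 4, 0 of 13, 0 of 6, 1 of 3 and 3 of 10 in the same order of roles, beside 16.5% of all probes, and Sox9 (-0.33, adjusted p = 0.223) and Vav1 (-0.27, adjusted p = 0.33) were the furthest of lists without a call. In N1N2 plus Lrp6 against control the furthest were Gng13 (0.53, adjusted p = 0.179), Sox9 (0.61, adjusted p = 0.162), Ptprc (-0.93, adjusted p = 0.237), Inpp5d (-0.52, adjusted p = 0.395), Il13ra1 (-0.35, adjusted p = 0.526) and Pla2g4a (0.30, adjusted p = 0.543). Of these, Sox9 passed in 2 of 29 other settings, Gng13 and Ptprc in 1 of 29 each, and the rest in none. The G-protein subunit Gnat3 and the cytokine Il25, both used as tuft cell markers, did not pass the filter, being well above background on 2, 1 and 0 and on 3, 3 and 2 arrays of control, N1N2 and N1N2 plus Lrp6. Tslp was so on 1, 1 and 0 arrays and Ptgs2 on none.

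**Figure D4:**
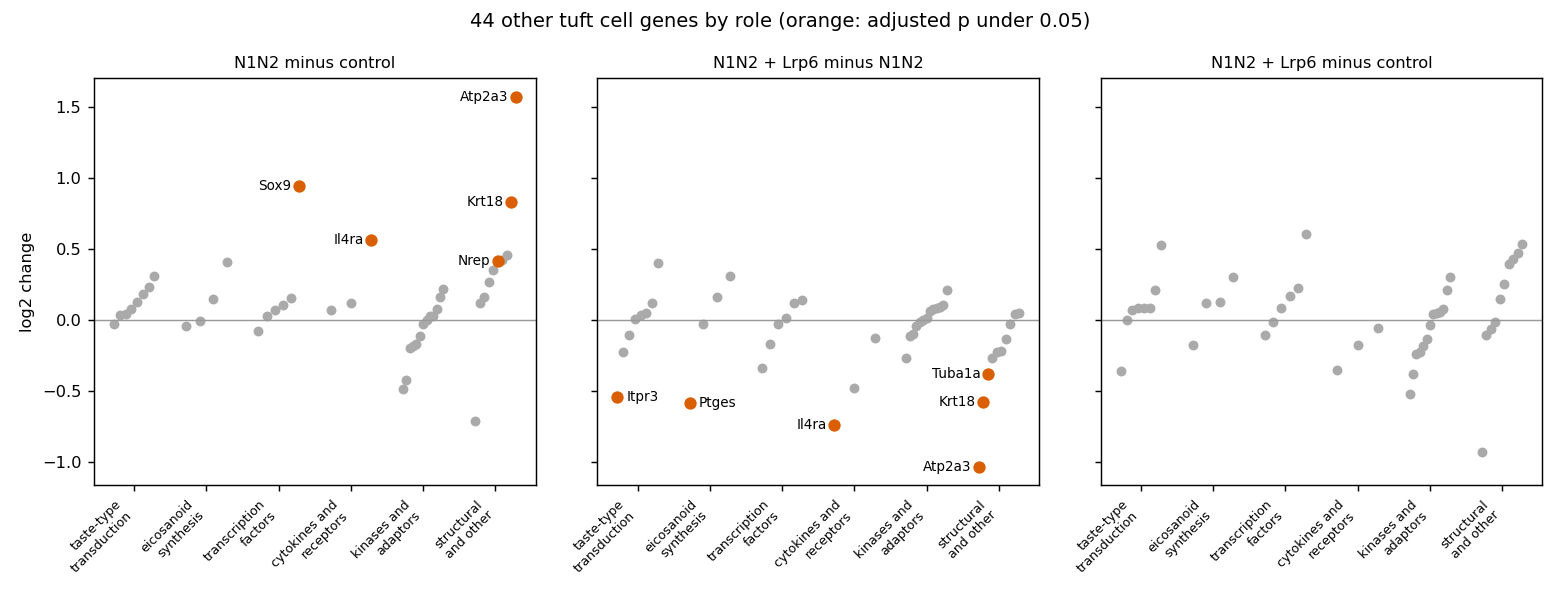
Log2 change (vertical axis) of the 44 further tuft cell genes tested, by role (horizontal axis), in the 3 comparisons; orange points passed an adjusted p of 0.05. The 5 named points in N1N2 against control lie above 0, the 6 in N1N2 plus Lrp6 against N1N2 below 0, and Atp2a3 is furthest in both, at 1.57 and -1.04.

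Several tuft cell genes are also expressed by other cells of a crypt preparation, whose markers were read on the same arrays. Lymphoid markers were well above background on every array (10 of 10 genes), as were myeloid ones (12 of 12). Of 10 mast cell genes on the array, 5 to 9 were above background on any array. Mcpt1, Mcpt2, Mcpt4 and Tpsb2 were so on all 15 arrays, and Cpa3, Hdc and Fcer1a on 3 or more arrays of every group. Ms4a2, Cma1 and Gata2 were so on 1, 1 and 4 of 15 arrays. None of the 7 mast cell genes tested passed in any comparison, and their mean ratio lay between 0.97 and 1.63 in control, 1.12 and 1.91 in N1N2 and 0.92 and 2.04 in N1N2 plus Lrp6.

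In N1N2 against control, the T cell genes Cd3e (-0.64, limma adjusted p = 0.0361) and Gzma (-0.77, adjusted p = 0.00479) were lower, 2 of 10 lymphoid genes. Of 12 myeloid genes 1 was called lower, the macrophage gene Aif1 (-0.84, adjusted p = 0.00158). Itgam, C1qb, Csf1r and Cd14 of that list went the other way, uncalled (0.78, 0.13, 0.10 and 0.01). Over all probes 5.23% were called lower in this comparison and 6.2% higher, so the myeloid count is near the background. The mean ratio of the lymphoid list lay between 2.34 and 2.93 in control and 1.92 and 2.82 in N1N2, and that of the myeloid list between 0.04 and 0.25 and between -0.08 and 0.10. The mean ratio of 5 platelet and megakaryocyte genes ran from -0.81 to -0.64 in control and from -0.66 to -0.28 in N1N2. Of 10 stromal and muscle genes Dcn and Lum fell in N1N2. In N1N2 plus Lrp6, 4 of the 10, among them Acta2 and Col1a1, were lower than in N1N2. Of all probes, 6.87% were called lower in that comparison. Of 14 enteroendocrine genes, Neurog3, Pax4 and Rfx6 rose in N1N2, by 3.83, 1.96 and 2.20. Tph1, Cck, Sst, Pax6 and Gip of that list went the other way, uncalled (-0.36, -0.19, -0.10, -0.04 and -0.04). The median change of the 14 was 0.18. Of 5 enteric neuron and glia genes tested none passed in N1N2, Ret fell by 0.54 with the Lrp6 antibody, and S100b and Uchl1 were above background on no array. With slide as a fixed block Cd3e, Gzma, Aif1, Dcn and Lum no longer passed. With 1 array left out at a time, Cd3e passed in 9 of 15 fits, Lum in 11 and Dcn in 12 in N1N2 against control. For the added Lrp6 antibody Ret passed in 4 of 15, Myh11 (another of the 4 stromal and muscle genes) in 9, Col1a1 in 12 and Acta2 in 15. The part of these cells in the values of Trpm5 and the other members was not tested.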

How the data were processed

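The authors deposited, per the file headers, Feature Extraction 11.0.1.1 scanner files with the median intensity and median background intensity of both channels quality flags and a log10 ratio for each spot, from an array designed on mouse build mm9. They also deposited a table of log2 values, which the submitters' processing notes tie to R 3.0.0 and limma 3.6.7, and whose columns matched the ratios computed here in scale and direction (r of at least 0.99998, column medians 0.0144 to 0.0286).

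Mean intensities were not used here, so medians served, and the deposited log10 ratios, made by the scanner software with its own dye normalization, were only compared. Flagged spots (401 to 761 per array) were left out, background was corrected with normexp (offset 50), loess was applied within arrays to the log2 ratio (red to green), and spots of a probe were averaged (R 4.3.3, limma 3.58.1). The offset pulls dim ratios towards 0. Of the probes, 28488 were kept. The 3 comparisons were made in 1 limma fit (lmFit, eBayes), two-sided, with Benjamini-Hochberg adjustment over all probes kept and a threshold of 0.05. Names come from a RefSeq table of GRCm38.p6, and the precision is limited by the 5 arrays per group.

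The members, the lists and the tests were chosen with earlier results of these data known. Named are all member probes, further tuft cell genes that passed or moved furthest in their list, up to 3 called genes per list of other cells, and those lists' markers below background. Genes that went against the calls are also named for the myeloid and enteroendocrine lists, and mast cell genes above background. A few genes that this rule would name are not reported here. Other array scalings, background settings, filters, the deposited values, slide and replicate blocks and leaving out 1 array were tried, and the red channel alone was added after the data were seen. The pipeline was tested on simulated data.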

Additional observations from a re-analysis of the deposited data

Results flagged for a closer look

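Of the 39 combinations of a member probe and a group, 1 held an array that stood far from the rest by Dixon's criterion, where chance alone gives about 1 in 20. It was the Dclk1 probe A_55_P2204804 on N1N2 replicate 1, with a log2 ratio of -1.85. The next N1N2 array read -2.55 and the lowest -2.68. The same array had the lowest N1N2 value for Rgs13, Avil and Trpm5.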

How the results depend on the processing

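In N1N2 against control the 1 member call, Trpm5, became 0 with median centring in place of loess, with arrays scaled to each other, with an offset of 0, with slide as a fixed block and with the replicate block, and 0 to 1 with 1 array left out. For the added Lrp6 antibody the 0 member calls became 3 with slide as a random block (Dclk1 probe A_51_P270355, Trpm5 and Alox5ap) and 0 to 1 with 1 array left out. For N1N2 plus Lrp6 against control the 0 became 2 with slide as a random block (Dclk1 probe A_55_P2148748 and Pou2f3) and stayed 0 in each fit with 1 array left out. At an unadjusted p under 0.05 limma counted 2 of 13 in each comparison, beside 26.4%, 29.1% and 12.8% of all probes. Same-numbered arrays correlated between -0.01 and 0.62 for N1N2 and control, over 0.1 in 4 of 5 pairs, between -0.43 and 0.08 for N1N2 plus Lrp6 and N1N2, and between -0.26 and -0.0012 for N1N2 plus Lrp6 and control. The labels name no shared source for a number and not every pair exceeded 0.1, so the arrays were treated as sharing only a number. As a hint from the data, 2 of 5 N1N2 arrays and 3 of 5 control arrays correlated best with their own number, and pairing of those groups is not excluded. With the replicate block Trpm5 gave 0.39 with an adjusted p of 0.0506.

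Over all probes, the 3257 calls in N1N2 against control became 1457 with median centring, 4970 with the 2 groups fitted alone and 369 with slide as a fixed block, and 1747 to 4655 with 1 array left out. The 4713 calls for the added Lrp6 antibody became 2702 with flagged spots kept and 8327 with slide as a random block, and 2937 to 5624 with 1 array left out. The 102 calls in N1N2 plus Lrp6 against control became 34 with median centring, 61 with scaled arrays, 51 with flagged spots kept, 54 with the 2 groups alone, 32 with the replicate block and 3270 with slide as a random block, and 27 to 422 with 1 array left out. The share of calls that were higher was 54.3% in N1N2 against control and 45.6% with median centring, 58.5% for the added antibody and 77.2% with median centring, and 54.9% for N1N2 plus Lrp6 against control and 67.2% with scaled arrays. The cause of these moves was not tested. Aquantile leaves log ratios as they are, and slide as a fixed block could not be fitted for the comparisons with N1N2 plus Lrp6.

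Member changes that turned sign were uncalled in both settings. In N1N2 against control, scaled arrays gave 0.15 for Alox5ap, -0.0090 for Gfi1b, -0.012 for Plcb2 A_55_P1961444 and 0.19 for Ptgs1. Flagged spots kept gave -0.23 for Dclk1 A_55_P2204804 and -0.049 for Hpgds, and median centring gave -0.014 for that Dclk1 probe. No background subtraction gave 0.0027 for Alox5ap, -0.020 for Hpgds and -0.021 for Plcb2 A_55_P2173298, and an offset of 0 gave 0.012 for Alox5ap. Red alone gave 0.042 for Alox5ap, -0.12 for Plcb2 A_55_P1961444 and -0.13 for Pou2f3, and slide as a fixed block -0.11 for Avil and -0.15 for Gfi1b.

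For the added Lrp6 antibody, scaled arrays gave 0.069 for Gfi1b and 0.31 for Rgs13, flagged spots kept 0.037 and 0.20, and red alone 0.29 and 0.13 for the same genes and 0.022 for Ptgs1. Median centring gave 0.16 for Ptgs1 and 0.0025 for Krt18, which was called without it. No background subtraction gave 0.029 for Hpgds, an offset of 0 gave 0.084 for Rgs13, and slide as a random block 0.030 for Dclk1 A_55_P2148748. For N1N2 plus Lrp6 against control, flagged spots kept gave -0.46 for Dclk1 A_55_P2204804, -0.11 for Hpgds, 0.18 for Plcb2 A_55_P1961444 and 0.20 for Il13ra1. Median centring gave -0.015 for that Dclk1 probe and -0.025 for Hpgds, an offset of 0 gave -0.011, -0.0080 and -0.065 for that probe, Gfi1b and Hpgds, red alone -0.021 for Hpgds and -0.046 for Pou2f3, and slide as a random block -0.00032 for Dclk1 A_55_P2204804.

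With 1 array left out, sign turned for Alox5ap (-0.085 to 0.048) and Dclk1 A_55_P2204804 (-0.082 to 0.12) in N1N2 against control. For the added antibody it turned for Avil (-0.23 to 0.040), Dclk1 A_55_P2148748 (-0.13 to 0.0017), Dclk1 A_55_P2204804 (-0.10 to 0.12), Rgs13 (-0.23 to 0.17), Ptgs1 (-0.078 to 0.046), Hpgds (-0.15 to 0.021) and Gfi1b (-0.11 to 0.043). For N1N2 plus Lrp6 against control it turned for Dclk1 A_51_P270355 (-0.0097 to 0.21), Dclk1 A_55_P2204804 (-0.030 to 0.13), Avil (-0.013 to 0.26), Hpgds (-0.075 to 0.093) and Gfi1b (-0.030 to 0.10).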
